A study of Homo sapiens with 6 samples.

Results

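The genes described here were almost silent in SKNMC cells, and reached a low count threshold in both libraries only with NFIB that lacks its intrinsically disordered region. A gene was taken when its raw count was 2 or more in both NFIB ΔIDR libraries and its counts summed to 2 or less over the 4 empty vector (EV) and NFIB WT libraries. This held for 104 of 22604 genes in the table (0.46%). The same rule with EV as the only detected pair gave 26 genes, and with NFIB WT as the only detected pair 36 genes. Because raw counts of all 6 libraries chose these genes, their counts are given as a description and carry no test. RNA-seq was done on SKNMC, an established Ewing sarcoma cell line, in 3 groups of 2 libraries. All cells were infected with lentivirus and selected with puromycin, and received an empty expression vector, V5-tagged wild-type NFIB (NFIB WT) or V5-tagged NFIB lacking the disordered region (NFIB ΔIDR). The infected cells still have their own NFIB and the EWS-FLI1 fusion protein that drives this tumor, so each NFIB construct was added to what the line already expresses. The study calls the 2 libraries of a group biological duplicates, and the labels do not say whether they came from separate infections.

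NFIB belongs to the nuclear factor I family of transcription factors, which bind DNA as dimers through an amino-terminal domain that recognizes a palindrome with the half-site TTGGC. The carboxy-terminal part is flexible, lacks a fixed fold and carries the transactivation function. In Ewing sarcoma cells, EWS-FLI1 opens GGAA repeats and other sites that are closed in most cells, while genes of mature tissues such as muscle, leukocytes, testis and sense organs stay largely silent.

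The total count ranged from 6664231 to 8465572 per library, so that a count of 0 allows up to 3 counts, or 0.354 to 0.45 counts per 1000000 counts (CPM). Intervals and such limits cover counting error only. NFIB itself (a whole-gene count that does not separate endogenous NFIB from the constructs) was at 174 and 143 CPM with EV, 969.7 and 1043 CPM with NFIB WT, and 2251 and 2337 CPM with NFIB ΔIDR. Transgene level thus differed between the NFIB groups together with the deletion, and their effects cannot be told apart. Ewing sarcoma markers (7 of 8 measured, among them NKX2-2, NR0B1, CCND1 and STEAP1) summed to 3584 to 5442 CPM in all libraries. Of 6 measured blood cell markers, PTPRC gave 1829 to 2151 counts in every library and the other 5 (CD3E, CD14, CD68, ITGAM and LYZ) gave between 0 and 31. The 4 measured testis germ cell markers summed to 39 to 51 counts. The 7 measured epithelial markers, with KRT18 the most abundant, summed to 307 and 349.6 CPM with NFIB ΔIDR and to 188 to 265 CPM in the other libraries. The part of these differences in the results below was not tested.

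The leading genes are shown first by the sequence at their start. RefSeq promoters of 300 bases (250 before and 50 after the gene start, build GRCh38.p14) were found for 72 of the 104 genes. Those printed belong to EPHA1-AS1, HSD11B1 and PCGEM1, which had the 3 largest summed NFIB ΔIDR counts, and to MEOX2, a homeobox gene. They lie at chr7:143407563-143407862 (+ strand), chr1:209685929-209686228 (+ strand), chr2:192749595-192749894 (+ strand) and chr7:15686634-15686933 (- strand). Capitals mark the NFI half-site TTGGC or its complement on the other strand.
EPHA1-AS1: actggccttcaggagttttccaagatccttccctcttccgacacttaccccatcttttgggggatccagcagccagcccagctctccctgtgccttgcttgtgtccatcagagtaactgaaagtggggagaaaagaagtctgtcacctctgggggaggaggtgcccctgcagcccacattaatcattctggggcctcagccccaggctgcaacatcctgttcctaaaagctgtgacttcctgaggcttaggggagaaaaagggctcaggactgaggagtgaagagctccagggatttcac
HSD11B1: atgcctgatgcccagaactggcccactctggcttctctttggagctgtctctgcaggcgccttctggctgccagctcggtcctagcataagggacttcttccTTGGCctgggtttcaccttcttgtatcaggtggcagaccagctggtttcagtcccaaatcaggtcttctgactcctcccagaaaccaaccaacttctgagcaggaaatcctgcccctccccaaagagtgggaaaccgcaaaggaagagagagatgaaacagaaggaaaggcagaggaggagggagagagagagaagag
PCGEM1: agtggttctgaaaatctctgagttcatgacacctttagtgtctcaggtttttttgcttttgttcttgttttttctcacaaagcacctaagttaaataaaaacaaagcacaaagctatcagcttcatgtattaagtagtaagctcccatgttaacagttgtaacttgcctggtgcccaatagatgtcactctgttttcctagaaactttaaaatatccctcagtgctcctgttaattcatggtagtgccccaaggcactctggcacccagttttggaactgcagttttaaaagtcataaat
MEOX2: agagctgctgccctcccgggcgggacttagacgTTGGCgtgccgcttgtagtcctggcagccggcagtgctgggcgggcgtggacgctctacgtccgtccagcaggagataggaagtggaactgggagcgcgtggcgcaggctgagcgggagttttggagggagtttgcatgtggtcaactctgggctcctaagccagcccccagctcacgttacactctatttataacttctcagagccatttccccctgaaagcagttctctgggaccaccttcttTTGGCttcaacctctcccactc
HSD11B1 held 1 half-site, starting 148 bases before the gene start, and MEOX2 held 2. EPHA1-AS1 and PCGEM1 held none in this window. Over all members with a promoter, 26 of 72 (36.1%) held at least 1 half-site, against 47.2% of 2042 promoters of other genes with a like total count and 47.1% of 16279 promoters of all genes in the table. The whole palindrome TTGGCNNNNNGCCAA, which contains both half-sites, was found in 0 of 72 promoters and in 0.0491% of all. The sequence GGAAGGAA, searched on both strands, was found in 6 of 72 (8.33%), against 3.97% and 3.51% of the same comparison promoters. That share rests on 6 promoters, and the promoter shares carry no interval and were not tested. The members' promoters had a median GC content of 54.5% and a median of 8 CpG dinucleotides. These medians were 58% and 10 for other genes with a like total count, and 62.7% and 22 for all genes. A match is a description of the letters and not a site of binding.

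The counts behind each gene were few, and in such bulk libraries transcription in a few cells and a low level in all cells cannot be told apart. Of the 104 genes, 38 had 2 counts in each NFIB ΔIDR library, 36 had a sum of 5, 30 had a sum of 6 or more and 3 had a sum of 10 or more. In the other 4 libraries, 22 genes had no count, 34 had a sum of 1 and 48 a sum of 2. A single read in each library of another group was seen for 11 genes with EV and for 3 with NFIB WT. Together the genes had 296 and 265 counts in the NFIB ΔIDR libraries, 37 and 34 with EV, and 29 and 30 with NFIB WT. Over all members, 33 genes were higher in replicate 1, 28 were higher in replicate 2 and 43 were equal, 38 of these at the lowest counts allowed. Of the 11 genes with a sum of 8 or more, all but PRUNE2 (2 and 7 counts) were higher in replicate 1. Just outside the rule, 82 genes with 2 or more counts in both NFIB ΔIDR libraries had a sum of 3 elsewhere. The highest of these, GDA (guanine deaminase), had 8 and 9 counts with NFIB ΔIDR, 1 and 2 with EV and 0 and 0 with NFIB WT. A further 286 genes had 1 count in the lower NFIB ΔIDR library and 2 or more in the other, with a sum of 2 or less elsewhere.

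**Figure D1:**
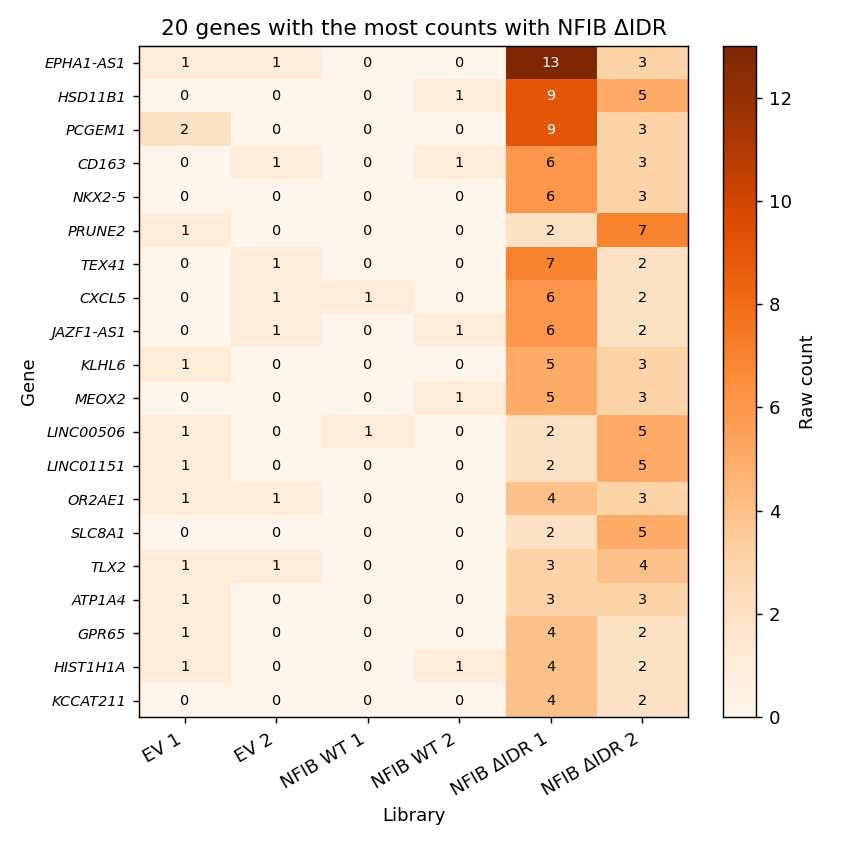
Raw counts (cell numbers and color) of the 20 genes with the largest summed NFIB ΔIDR count in each of the 6 libraries. The largest value is 13 for EPHA1-AS1 in NFIB ΔIDR replicate 1, and the EV and NFIB WT cells hold 0 to 2 as the rule requires.

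Of the homeobox factors that pattern the embryo, 3 were among the members, a group put together after the members were known. By gene name, homeobox and other developmental factors were 0.962% of the 104 genes and 1.05% of other genes with a like total count. This name class holds NKX2-5 but not MEOX2 or TLX2, so neither share counts every homeobox gene. A like share for the 3 genes together is not available. NKX2-5, the homeobox factor of early heart formation (hg19 chr5:172659112-172662314), had 6 and 3 counts with NFIB ΔIDR and 0 in the other 4 libraries. Its summed level was 6.47 times the level that 3 counts over those 4 libraries would give. This ratio takes the NFIB ΔIDR counts at face value and leaves out their counting error. MEOX2, a homeobox factor of somites and limb muscle precursors (chr7:15650837-15726308), had 5 and 3 counts with NFIB ΔIDR, 0 and 0 with EV, and 0 and 1 with NFIB WT. TLX2, a homeobox factor of the enteric nervous system, had 3 and 4 counts with NFIB ΔIDR, 1 and 1 with EV, and 0 and 0 with NFIB WT. The 3 genes together had 14 and 10 counts with NFIB ΔIDR and 0 or 1 in each other library.

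HSD11B1, which turns inactive cortisone into cortisol (chr1:209859523-209908294), had 9 and 5 counts with NFIB ΔIDR, 0 and 0 with EV, and 0 and 1 with NFIB WT. It was the only gene with 5 or more counts in both NFIB ΔIDR libraries. Its level with NFIB ΔIDR was 30.2 times the pooled level of the other 4 libraries, with an exact 95% counting interval of 4.59 to 1276 that shows how little 15 counts fix the size.

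Long noncoding RNAs made up 27 of the 104 genes (26%), about the share among other genes with a like total count (26.9%). EPHA1-AS1, antisense to the ephrin receptor gene EPHA1 (chr7:143104877-143220542), had 13 and 3 counts with NFIB ΔIDR, 1 and 1 with EV, and 0 and 0 with NFIB WT. PCGEM1, a long noncoding RNA first described in prostate cancer (chr2:193614571-193641625), had 9 and 3 counts with NFIB ΔIDR, 2 and 0 with EV, and 0 and 0 with NFIB WT. Both genes were higher in NFIB ΔIDR replicate 1 than in replicate 2. TEX41 (7 and 2 counts with NFIB ΔIDR) and JAZF1-AS1 (6 and 2 counts) showed the same order between replicates, whereas LINC00506 and LINC01151 had 2 and 5 counts. KCCAT211, LINC00559 and LINC00881 had sums of 6 with NFIB ΔIDR and no count elsewhere. JAZF1-AS1 overlaps JAZF1 on the opposite strand, and no source used here states the strand setting of the counting, so that reads of the antisense pair cannot be told apart. JAZF1 itself was at 22.4 and 18.3 CPM with NFIB ΔIDR and 21.8 and 18.2 CPM with EV (edgeR adjusted p = 0.983).

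The groups by function that follow were made by hand after the members were known. They have no counterpart among other genes, so no share can be set beside them, and their counts restate the rule. Proteins of leukocytes were 15 genes with 44 and 34 counts with NFIB ΔIDR, and 4 to 6 counts in each other library. CD163, the macrophage scavenger receptor for haptoglobin-hemoglobin, had 6 and 3 counts with NFIB ΔIDR, 0 and 1 with EV, and 0 and 1 with NFIB WT. CXCL5, a neutrophil chemokine, had 6 and 2 counts with NFIB ΔIDR, 0 and 1 with EV, and 1 and 0 with NFIB WT. KLHL6, an adaptor of B cell receptor signaling, had 5 and 3 counts, and GPR65, a proton-sensing receptor of lymphocytes, 4 and 2 counts with NFIB ΔIDR. PRF1, the pore-forming protein of cytotoxic cells, and SLAMF6, a receptor of T and natural killer cells, had 5 counts each with NFIB ΔIDR and 0 in the other 4 libraries. By gene names alone, 8 of 104 genes (7.69%, exact 95% interval 3.38 to 14.6%) were chemokines, interleukins or leukocyte receptors. The share was the same among the EV-only genes (2 of 26, 7.69%) and was 0 of 36 among the NFIB WT-only genes. Of 3318 other genes with 4 to 18 counts in total, 2.08% were in this class. It was picked from many classes compared by name, with no adjustment made. The 8 were CCL20, CD163, CD209, CD27, CXCL5, KLRC2, KLRF1 and TREML1. None of the 22 genes without a count elsewhere was among them.

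The remaining functional groups were smaller. Proteins of heart and skeletal muscle (5 genes) included SLC8A1, the cardiac sodium-calcium exchanger, with 2 and 5 counts with NFIB ΔIDR and 0 elsewhere, and SORBS2, a Z-disc adaptor, with 2 and 3 counts and 0 elsewhere. MYOT, a protein of the Z-disc, had 3 and 3 counts with NFIB ΔIDR and 2 and 0 with NFIB WT. Proteins of sight, hearing, taste and smell (10 genes) had 24 counts in each NFIB ΔIDR library and 2 to 4 in each other library. They included MYO3A and MYO3B, class III myosins of hair cells, the retinal calcium channel CACNA1F, the taste G protein subunit GNAT3 and the odorant receptors OR2AE1, OR51B2 and OR52H1. MYO3B had 3 and 3 counts with NFIB ΔIDR and 0 elsewhere. Proteins of testis and sperm (5 genes) had 11 and 14 counts with NFIB ΔIDR, and included ATP1A4, the sodium pump subunit of sperm, with 3 and 3 counts. The hepatocyte growth factor gene HGF had 2 and 3 counts with NFIB ΔIDR and 2 and 0 with NFIB WT, and the BDNF receptor gene NTRK2 had 2 and 2 counts against a sum of 2 elsewhere.

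The classes otherwise followed those of little-expressed genes. Protein-coding genes were 63.5% of the 104 (exact 95% interval 53.4 to 72.7%), against 57.8% of other genes with a like total count. Small RNAs were 5.77% against 8.8%, and pseudogenes 3.85% against 5.61%. By name, 3 were ion channel genes (CACNA1F, KCNK12 and TRPV6; 2.88% against 1.66%), 3 olfactory receptors (2.88% against 0.904%) and 3 solute carriers or transporters (SLC8A1, ATP1A4 and SLC7A14; 2.88% against 2.29%). A further 7 were long intergenic noncoding RNAs (6.73% against 5.49%), and 17 were named only by a clone, family or locus number (16.3% against 17.6%). In each of these 5 classes the comparison share lay within the exact 95% interval of the members' share. No member fell in the zinc-finger, keratin or protease classes by name, which were 1.42%, 0.663% and 1.81% of the comparison genes. The classes go by symbol only and can miss genes of a kind. The protease gene ST14 and the ion channel gene ZACN, for example, were members left in no named class. HIST1H1A, KLRC2, SSX6, NBEAP1, SNAR-G1 and SNORD116-16 have close relatives in the genome, and how reads with several matches were counted is not given, so their counts are uncertain.

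The 3 microRNA genes lie within the transcribed span of tested genes on the same strand. Their mature sequences (RefSeq, GRCh38.p14) are printed with the seed, bases 2 to 8, in capitals, and share no seed.
hsa-miR-26a-5p: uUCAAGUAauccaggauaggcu
hsa-miR-617: aGACUUCCcauuugaagguggc
hsa-miR-659-3p: cUUGGUUCagggagggucccca
MIR26A2 had 2 and 3 counts with NFIB ΔIDR and lies in CTDSP2, which was at 97.4 and 95.4 CPM with NFIB ΔIDR, 155 and 140.4 with NFIB WT and 115 and 115 with EV. CTDSP2 was lower with NFIB ΔIDR than with NFIB WT (log2 fold change -0.63, edgeR adjusted p = 0.00296), while MIR26A2 had 1 count in EV replicate 1 and none in the other 3 libraries. MIR617 had 2 and 2 counts with NFIB ΔIDR and also 2 in EV replicate 1, and MIR659 had 2 and 2 counts with NFIB ΔIDR and also 2 in NFIB WT replicate 2. MIR617 lies in LIN7A and MIR659 in ANKRD54, and neither of these genes passed the test in either comparison (adjusted p = 0.485 and 0.528 for LIN7A, 0.359 and 0.283 for ANKRD54). Counts at these loci are fragments of total RNA and cannot be told apart from reads of the surrounding transcript.

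The same rule found fewer genes for the other groups. The EV-only genes were led by PLCXD2 (8 and 5 counts with EV), followed by the prothrombin gene F2 (5 and 2), SPECC1L-ADORA2A (5 and 2), LOC441666 (3 and 3) and MIR3198-1 (4 and 2). The NFIB WT-only genes were led by the keratin gene KRT80 (7 and 7 counts with NFIB WT), the ephrin receptor gene EPHB6 (5 and 4), LINC01133 (5 and 4), RERG-AS1 (5 and 3) and the collagen gene COL15A1 (4 and 3). With 1 count required in both libraries, 688 genes were found only with NFIB ΔIDR, 304 only with EV and 315 only with NFIB WT. With 3 counts required the numbers were 14, 3 and 8, and with 5 counts required each group had 1 gene (HSD11B1, PLCXD2 and KRT80). NFIB ΔIDR thus gave the most genes at 1, 2 and 3 counts, and no more than the others at 5. When counts were scaled by TMM library size before the rule was applied, 36, 4 and 13 genes were left. Of the 104 genes, 65 were lost there because 2 counts in NFIB ΔIDR replicate 1 became 1.997.

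**Figure D2:**
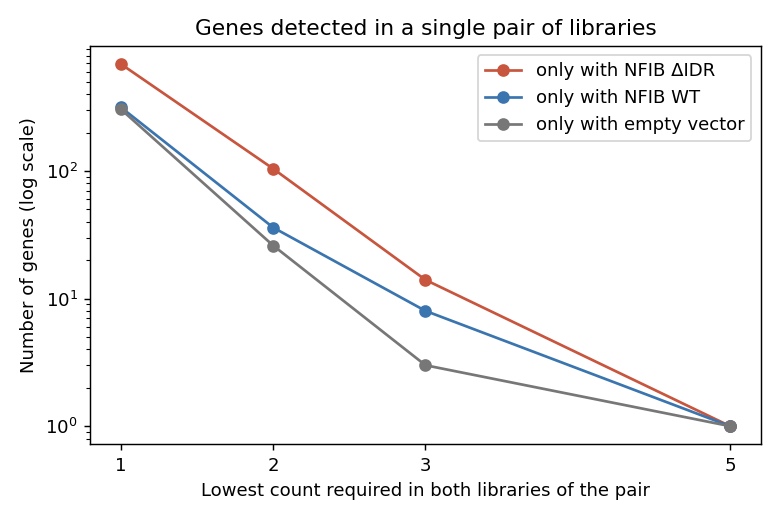
Number of genes (log scale) detected in a single pair of libraries against the lowest raw count required in both libraries of that pair, with a sum of 2 or less over the other 4. NFIB ΔIDR lies above the other groups at 1, 2 and 3 counts (688, 104 and 14 genes), and all 3 groups have 1 gene at 5 counts.

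To read the difference in libraries that had not chosen the genes, genes were selected on the replicate 1 libraries alone (2 or more counts in 1 group, and a sum of 1 or less over the other groups) and their level was read in the replicate 2 libraries. The 744 genes so chosen with NFIB ΔIDR summed to 120.4 CPM in NFIB ΔIDR replicate 2, 71.1 CPM in EV replicate 2 and 70 CPM in NFIB WT replicate 2. The level was 1.71 times that of the other libraries (exact 95% counting interval 1.56 to 1.87). Chosen on replicate 2 and read in replicate 1, 517 genes summed to 105 CPM with NFIB ΔIDR, 60.5 CPM with EV and 60.8 CPM with NFIB WT, a ratio of 1.74 (1.58 to 1.92). Most single genes were not seen again as the highest, since 208 of 744 (28%) and 200 of 517 (38.7%) exceeded both other held-out libraries, and 319 and 170 had no count in the held-out NFIB ΔIDR library. Genes chosen with EV stood at 0.856 (0.747 to 0.981) and 0.82 (0.718 to 0.934) times the other libraries, and genes chosen with NFIB WT at 1.05 (0.923 to 1.2) and 1.13 (0.99 to 1.28). The genes chosen with EV were highest with NFIB ΔIDR in the held-out libraries, at 49.1 and 59.9 CPM. Each reading compares 3 libraries, with no replicate of its own, and the second reading uses the libraries that chose the genes of the first.

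**Figure D3:**
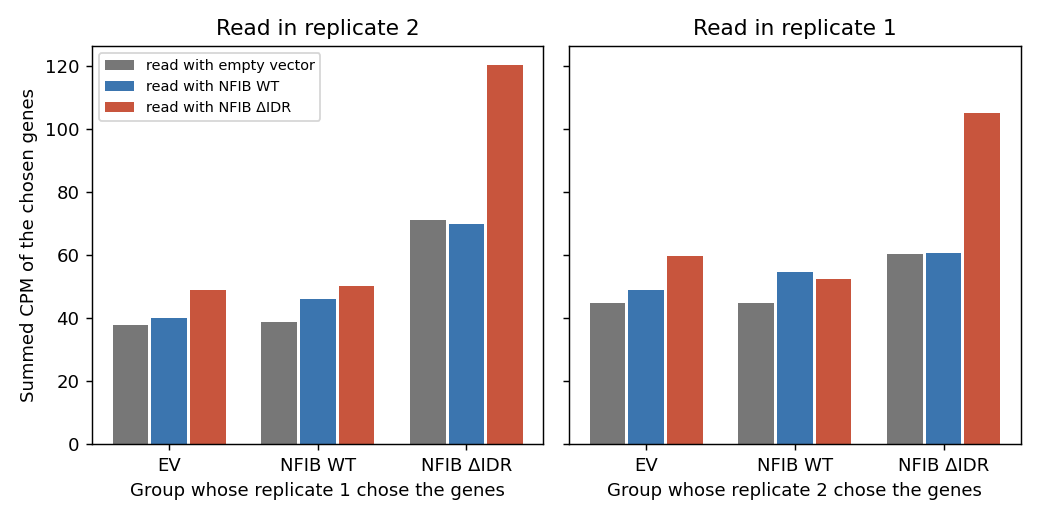
Summed CPM, in the held-out libraries, of genes chosen as detected in 1 group on the libraries of the other replicate number; bars start at 0 and each bar is 1 library. Genes chosen with NFIB ΔIDR read 120.4 and 105 CPM with NFIB ΔIDR against 60.5 to 71.1 CPM with EV and NFIB WT, and genes chosen with EV read no higher with EV than with the other constructs.

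Little-expressed genes outside the 3 sets were also higher with NFIB ΔIDR. The 3678 genes with 1 to 3 counts over all libraries summed to 216 and 169 CPM with NFIB ΔIDR, 122 and 100.2 CPM with EV, and 136 and 111 CPM with NFIB WT. Both NFIB ΔIDR libraries lay above all 4 others, and the ratio of the means was 1.64. The ratio was 1.35 for 2189 genes with 4 to 10 counts, 1.23 for 11 to 30, 1.17 for 31 to 100, 1.06 for 101 to 300, 1.01 for 301 to 1000 and 0.998 above 1000. Both NFIB ΔIDR libraries were above the other 4 in every bin up to 300 counts. An exact two-sided permutation test of 2 against 4 libraries gave p = 0.133 in each of those bins, which is the smallest p that this design allows. Likewise, fewer genes were at 0 with NFIB ΔIDR (3013 and 3478) than with EV (3864 and 3901) or NFIB WT (4042 and 3972). Among the 13501 genes tested with edgeR, the median log2 fold change of NFIB ΔIDR against EV was 0.15 in the lowest-expressed 1351 genes and -0.05 in the 1350 highest-expressed genes, and against NFIB WT 0.23 and -0.02.

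**Figure D4:**
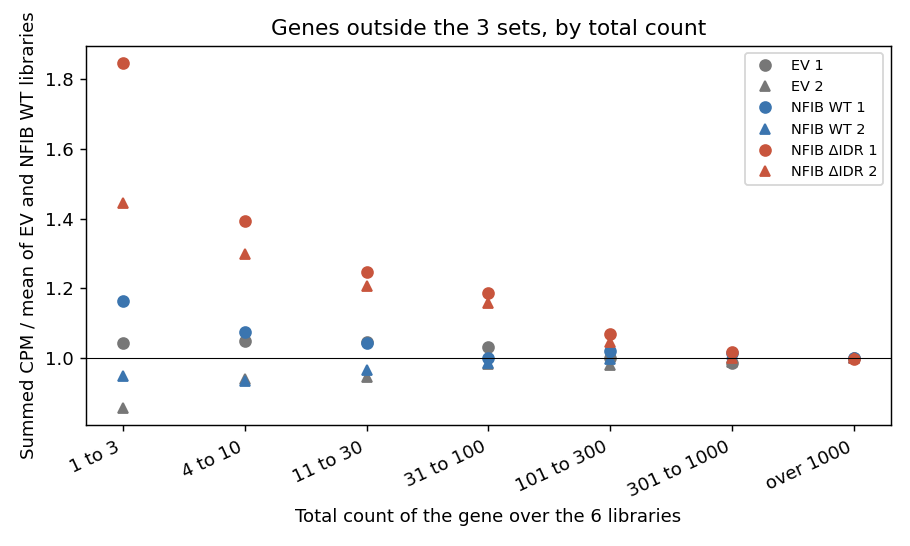
Summed CPM of genes outside the 3 sets in each library, divided by the mean of the EV and NFIB WT libraries, against the total count of the genes over all libraries. Both NFIB ΔIDR libraries lie above the other 4 up to 300 counts, with ratios of the means from 1.64 at 1 to 3 counts to 1.06 at 101 to 300.

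The ratio varied between kinds of RNA. Over the 8043 genes with 1 to 30 counts outside the sets, the ratio of NFIB ΔIDR to the other libraries was 1.29. It was 1.35 for protein-coding genes, 1.32 for long noncoding RNAs and 1.19 for pseudogenes. Small RNAs stood at 0.927, with 117 and 109.6 CPM with NFIB ΔIDR and 104 to 142 CPM elsewhere, so that the groups overlapped (exact permutation p = 0.667). Olfactory and taste receptors (156 genes) had 19.7 and 19.5 CPM with NFIB ΔIDR against 8.3 to 12.5 CPM elsewhere, a ratio of 1.87, and long intergenic noncoding RNAs (500 genes) 87.1 and 88 CPM against 54.7 to 65.2 CPM, a ratio of 1.49. Over the 20 name classes with enough genes, 18 had ratios from 1.2 to 1.87, with chemokines, interleukins and leukocyte receptors (214 genes) at 1.4, near the 1.35 of protein-coding genes. The others were microRNAs (0.993) and small nucleolar or nuclear RNAs (0.812). By exon length, the ratio was 0.982 under 500 bases, 1.3 from 500 to under 2000, 1.36 from 2000 to under 5000 and 1.41 from 5000 bases. Genes that overlap no tested gene had a ratio of 1.38 and genes that overlap one had a ratio of 1.17. These ratios were not tested against each other.

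The members' surroundings held somewhat fewer genes than those of the comparison genes, and about as many as those of the NFIB WT-only genes. A median of 17.5 genes of the table started within 1000 kb of a member, against 18.5 for the NFIB WT-only genes, 26 for the EV-only genes, and 22 both for other genes with a like total count and for all genes. The nearest tested gene started a median of 98.5 kb away, against 64.9 kb for the NFIB WT-only genes, 39.6 kb for the EV-only genes, 49.9 kb for the comparison genes and 41.4 kb for all genes. Of 96 members with an annotated span, 16 (16.7%, exact 95% interval 9.84 to 25.6%) overlapped a tested gene, against 23.5%, 30.4%, 29.5% and 30.7% in the same order. In 13 members (12.5%) 5 or fewer genes started within 1000 kb, against 5.76% of the comparison genes, 0 of 26 EV-only genes and 1 of 36 NFIB WT-only genes. PCGEM1, with 2 genes within 1000 kb and its nearest tested gene TMEFF2 555 kb away, was an example. The members' exons had a median summed length of 2323 bases, between the 1912.5 bases of the comparison genes and the 2651 bases of all genes.

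The 104 genes were spread over 22 chromosomes, with none on chromosome 21. Chromosomes 2 and 3 held 11 each (10.6%, exact 95% interval 5.4 to 18.1%), against 6.57% and 7.2% of the comparison genes, and chromosome 7 held 10 (9.62%, 4.71 to 17%) against 4.58%. Chromosomes 17 and 19 held 2 each (1.92%), against 5.18% and 6%. For chromosome 7 the comparison share lay just below the interval, whereas the 4.91% of all genes that lie there fell within it, with 23 chromosomes compared and no adjustment made. The little-expressed genes outside the sets were higher with NFIB ΔIDR on all 23 chromosomes, with ratios from 1.13 (chromosome 9) to 1.58 (chromosome 13), and both NFIB ΔIDR libraries were above the other 4 on 21 of them.

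**Figure D5:**
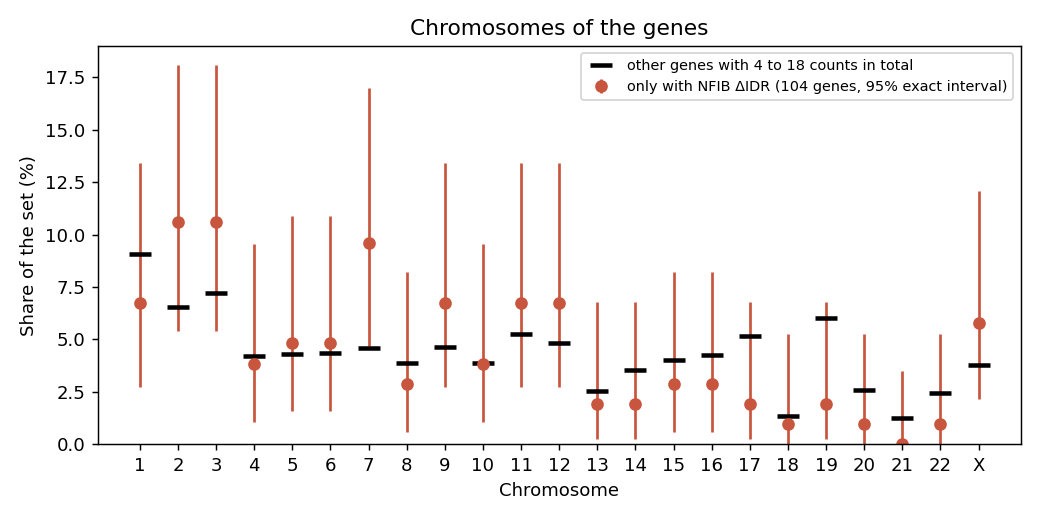
Share of the 104 genes on each chromosome (points, with exact 95% intervals) and of 3318 other genes with 4 to 18 counts in total (black dashes). The shares on chromosomes 2 and 3 are 10.6% each and that on chromosome 7 is 9.62%, where the dash, at 4.58%, lies below the interval.

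Few members were neighbors. Within 1000 kb of another member lay 14 of the 104 genes, in 7 pairs, and none lay within 100 kb of another. The pairs were C2orf83 with the chemokine gene CCL20 (181 kb apart), the odorant receptors OR51B2 and OR52H1 (221 kb), ATP1A4 and SLAMF6 (372 kb), the calcium channel gene TRPV6 and EPHA1-AS1 (521 kb), the natural killer cell receptors KLRF1 and KLRC2 (609 kb), MYO1A and MIR26A2 (774 kb), and LINC00440 and LINC00559 (884 kb). Between OR51B2 and OR52H1 started 10 other genes of the table and between KLRF1 and KLRC2 20, none of which belongs to the set. No pair within 1000 kb was present among the EV-only or NFIB WT-only genes, which were fewer, so that the numbers of pairs cannot be compared.

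None of the 104 genes had enough counts for the fit across genes. In a fit without the filter on low counts, 1 member (HSD11B1) was past the threshold of edgeR against EV, where 1.22% of all 22604 genes were, and 3 (HSD11B1, EPHA1-AS1 and PCGEM1) were past it against NFIB WT, where 4.94% of all genes were. DESeq2 on the same genes called 0 of the 104 in either comparison, where 0.0841% and 1% of all genes were called higher. At an unadjusted p under 0.05 there were 2 and 4 members, against 24 and 23 in edgeR. A share over all genes at this unadjusted level is not available. These counts come from the contrasts that chose the members and are no test of them.

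The nearest tested genes were read as a measure that the rule did not use. A tested gene started within 1000 kb of 101 members, and these were 100 different genes. Against EV, 0 of the 100 were called higher with NFIB ΔIDR by edgeR, where 0.296% of all tested genes were, and 1 was called lower, where 0.356% were. Against NFIB WT, 4 were called higher, where 5.19% of all tested genes were, and 4 lower, where 5.52% were. Their median log2 fold change rounded to 0 in both comparisons, as over all tested genes, and 50 and 49 of them were above 0. The 100 genes were therefore called about as often as tested genes in general. DESeq2 also called 0 of them higher against EV, but the number depended on the libraries in the fit. It was 10 of 97 when the NFIB WT libraries were left out, where 6.85% of all genes were called higher.

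HIST1H3A, a histone gene 2.68 kb from the linker histone gene HIST1H1A, was the neighbor called in both comparisons. It was at 8.39 and 9.45 TMM-scaled CPM with NFIB ΔIDR, 16.5 and 20.1 with EV, and 23.2 and 22.4 with NFIB WT. The groups did not overlap, and it was lower with NFIB ΔIDR by a log2 fold change of -1.04 against EV (edgeR adjusted p = 0.0204) and -1.36 against NFIB WT (adjusted p = 0.00115). The call against EV was lost on leaving out any of the EV or NFIB ΔIDR libraries, as were nearly all calls against EV over all tested genes. HIST1H1A itself had 4 and 2 counts with NFIB ΔIDR, 1 and 0 with EV, and 0 and 1 with NFIB WT. DAW1, a factor of cilia assembly 57.8 kb from CCL20, was at 5.95 ± 0.766 TMM-scaled CPM with NFIB ΔIDR and 2.39 ± 0.625 with NFIB WT (SD, n = 2 libraries each), and its edgeR adjusted p was 0.0259. SOSTDC1, a secreted BMP antagonist 779 kb from MEOX2, was at 3.99 ± 1.05 and 1.24 ± 0.0623 in the same groups (edgeR adjusted p = 0.0141, n = 2 each), and at 3.69 ± 0.0135 with EV. ZHX2 near LINC01151 and HDAC8 near PHKA1 were higher with NFIB ΔIDR than with NFIB WT by log2 fold changes of 0.64 and 0.51 (edgeR adjusted p = 0.0129 and 0.0425). GALC near GPR65, SLC19A3 near C2orf83 and MGST3 near LOC400794 were lower by -0.98, -0.88 and -0.41 (edgeR adjusted p = 0.0232, 0.0455 and 0.0413). SLC19A3 was at 6.99 with NFIB ΔIDR, 7.24 with EV and 13.1 with NFIB WT, and MGST3 at 36.2, 37.3 and 48.2 TMM-scaled CPM, so that in both the NFIB WT group stood apart. GALC was at 3.47, 5.54 and 6.88, ZHX2 at 32.2, 25.8 and 20.7, and HDAC8 at 26.3, 20.6 and 18.5 in the same order. Without either NFIB ΔIDR library, fewer genes were called against NFIB WT, both among the neighbors and among all tested genes.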

How the data were processed

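RNA-seq was measured in 6 libraries of SKNMC cells (2 with EV, 2 with NFIB WT and 2 with NFIB ΔIDR), made from total RNA with the CORALL kit. The authors deposited raw counts per RefSeq gene, without normalization; the submitters' processing notes and the paper name CASAVA 2.19, STAR 2.4.0h, featureCounts and hg19. No source used here states the strand setting, the handling of multi-mapping reads or whether molecular identifiers were used. Genes at 0 in all libraries are not in the table. Library totals ranged from 6664231 to 8465572 counts.

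The members, gene lists and groupings were chosen with earlier results of these data known. The rule was applied to raw counts. Named genes were NFIB, the 20 members with the largest summed NFIB ΔIDR count, members within 1000 kb of another, up to 4 per class, the top 5 of the EV-only and NFIB WT-only sets, and neighbors called at an adjusted p under 0.05 (up to 10); others were named after their values were seen. Gene classes came from symbols and RefSeq biotypes (99.4% of rows matched), and spans from GENCODE v44 on GRCh37 (94.5% of rows). A marker of the blood cell list is not reported here. Comparison genes had 4 to 18 counts in total and were in none of the 3 sets.

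Genes passing filterByExpr (minimum count 10, minimum total 15; 13501 genes) were tested with the quasi-likelihood test of edgeR 4.0.16 (R 4.3.3, TMM, all 6 libraries in a single fit, Benjamini-Hochberg adjustment). P values measure the spread within pairs of libraries. The scripts were tested on simulated data. DESeq2 1.42.0, other scalings, filters, thresholds, windows, a replicate block and leaving out each library were alternatives. Intervals are exact (Clopper-Pearson or conditional binomial) at 95%.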

Additional observations from a re-analysis of the deposited data

How the results depend on the processing

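The numbers of genes detected only with NFIB ΔIDR, EV and NFIB WT (104, 26 and 36) depend on the thresholds. A lowest count of 1, 3 and 5 gave 688, 14 and 1 genes for NFIB ΔIDR, 304, 3 and 1 for EV, and 315, 8 and 1 for NFIB WT. A sum of 0 or of up to 4 over the other libraries gave 22 and 276, 4 and 116, and 4 and 114 genes. Counts scaled to the mean library total gave 90, 4 and 12 genes, counts scaled by TMM library size 36, 4 and 13, and counts scaled by DESeq2 size factors 36, 4 and 13. Leaving out each library gave 175 to 540, 62 to 219 and 78 to 225 genes, since each omission relaxes the rule. NFIB ΔIDR gave the most genes under each threshold and scaling except a lowest count of 5. It did not without EV replicate 1 (205 genes against 219 for EV) nor without NFIB WT replicate 1 (175 against 200 for NFIB WT) or replicate 2 (191 against 225), where the group with a single library left faced the looser rule. Held-out ratios for NFIB ΔIDR kept their direction under a lowest count of 3 and under TMM sizes (1.67 to 1.82), and those for NFIB WT moved to 1.24 and 1.45 with a lowest count of 3; the cause was not tested. The ratio of 1.29 for little-expressed genes was 1.25 to 1.33 without each library and 1.28 with TMM sizes, alternatives chosen after seeing the data.

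Neighbors called higher and lower against EV (0 and 1) were 4 and 2 without the expression filter, where 1.22% and 1.21% of all genes were called. They were 10 and 5 with only the 2 groups compared, where 6.85% and 7.32% were called. Against NFIB WT (4 and 4) they were 1 and 1 with DESeq2, 8 lower without the filter, 1 lower with only the 2 groups compared, 2 higher within 100 kb, and 0 to 11 and 1 to 13 without each library. With DESeq2, 1.31% of all genes were called higher and 1.91% lower, and with only the 2 groups compared 2.7% were called lower. These shares fell from the main fit as the neighbors did. Without the filter 5.15% of all genes were called lower, near the 5.52% of the main fit, while the neighbors rose to 8. Without each library, the share over all tested genes rose or fell in the same direction as the neighbors. The cause of these shifts was not tested. Replicate differences correlated weakly between groups (0.02, 0.06 and 0.17 over 13501 genes), which cannot settle whether the numbers pair the libraries. With the replicate block, 7 and 7 neighbors were called against NFIB WT, where 7.76% and 7.73% of all tested genes were called. Against EV, 0 and 1 were called, where 0.889% and 0.896% of all tested genes were. Members called without a filter (1 and 3) fell to 0 and 0 with DESeq2, where 0.0841% and 1% of all genes were called higher. Members with another member nearby were 0 within 100 kb and 41 within 5000 kb, against 14. Class shares left their main interval in 21 of 32 cases, where the stricter rules left 14 or 22 genes.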
